A study of Mus musculus with 87 samples.

Results

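Neural precursors (NP) whose Suz12 gene carries a constitutive exon 4, labelled CSex4, were compared with wild-type (WT) neural precursors by polyA RNA-seq. The comparison was described over the 16136 genes whose baseMean was at least 10 in the authors' deposited table, of 26171 genes in it. BaseMean is the mean of a gene's size-factor-normalised reads over the 4 libraries. The gene just above that limit was Tsnaxip1 (baseMean 10, log2 fold change −0.10 ± 1.60, SE) and the gene just below it was 1700042O10Rik (baseMean 9.999, 0.15 ± 1.61) in the authors' deposited table. The series holds 87 samples, of which 4 enter this comparison: 2 NP CSex4 and 2 NP WT samples (replicates 1 and 2). Both groups were made from the mouse embryonic stem cell (ESC) line 129-B13 as embryoid bodies, which received retinoic acid on day 4 and were harvested on day 8. CSex4 cells include exon 4 in every Suz12 transcript by design; inclusion of the exon was not measured here. Other groups set beside these are ESC CSex4 and ESC WT, grown with serum and LIF, and day 8 NP that lacked exon 4 (Deltaex4), lacked Suz12 (KO) or lacked Suz12 and carried the long (KO-L) or the short (KO-S) Suz12 isoform as a rescue, with 2 samples in each of these 4 NP groups. The labels do not say whether the samples of a group were separate cultures or whether a line was 1 clone, so p-values measure the spread between these samples, which may be technical.

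Suz12 is a core subunit of Polycomb repressive complex 2 (PRC2). This enzyme complex places the repressive histone mark H3K27me3 and keeps developmental genes silent in embryonic stem cells. Accessory subunits such as Jarid2, Aebp2, Mtf2 and Phf19 bind the core complex and help place it on CpG-rich DNA. During differentiation of embryoid bodies with retinoic acid, the pluripotency network is shut down, and neural transcription factors and the anterior genes of the Hox clusters, many of them Polycomb targets, are switched on.

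The labelled cell type was checked against its markers first. The 7 neural precursor markers (Sox1, Pax6, Nes, Fabp7, Hes5, Rfx4 and Sox3) were detected in every library, and their reads summed to 351 and 798 RPM (recovered reads scaled to the library's total) in the WT libraries and to 255 and 265 in the CSex4 libraries. The ESC mean of the same sum was 143 RPM, in a table normalised separately. Most of it was Nes, with an ESC baseMean of 3963, against 134 for Pax6, 54.7 for Sox3 and 49.4 for Sox1. The ESC log2 fold change of Nes was 3.04 ± 1.51 and was not called. The 5 embryonic stem cell markers (Pou5f1, Nanog, Zfp42, Esrrb and Dppa5a) summed to 425 and 192 RPM in WT and to 1879 and 1853 in CSex4, against 3052 in ESC. Neuron markers (Tubb3, Dcx, Elavl3 and Stmn2) summed to 201 and 948 in WT and 324 and 315 in CSex4. Endoderm markers (Sox17, Foxa2, Gata4, Gata6 and Afp) summed to 738 and 96.0 in WT and 202 and 205 in CSex4. Neural crest markers (Sox10, Foxd3 and Tfap2b) summed to 16.8 and 62.1 in WT and 13.2 and 13.5 in CSex4. Trophoblast markers (Cdx2, Elf5, Gata3 and Krt7) summed to 68.9 and 39.7 in WT and 144 and 144 in CSex4. Of the mesoderm markers, T and Mesp1 were below baseMean 10, with Mesp1 at 0 in at least 1 library. In the separately normalised ESC table these sums had means of 307 RPM for neuron, 14.3 for endoderm, 11.9 for neural crest and 17.1 for trophoblast markers. Endoderm and trophoblast sums were above the ESC mean in every library. In CSex4 the neuron and neural crest sums were near it. Near-equal sums can come from different genes, so they do not tell whether RNA of those cell types went beyond the ESC level. Foxd3 was the 1 neural crest marker that reached baseMean 10 in both comparisons. Its ESC baseMean was 342, and it had 85.1 and 100 normalised reads in CSex4 neural precursors. The part of these sums in the results below was not tested. In bulk samples a change in the share of a cell type and a change of RNA per cell cannot be told apart.

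The values of single libraries were recovered as whole reads from the deposited means and fold changes for 16119 of the 16136 genes (99.89%). They amounted to 31070930 and 28488380 reads in the WT libraries and 24144894 and 27223118 in the CSex4 libraries. The deposited fold changes are those of a paired fit, and the 2 pairs it used are called A and B here; which of them is replicate 1 could not be read from the files. Among 12412 genes with baseMean of at least 100, the log2 difference between the WT libraries had an SD of 0.76 and exceeded 1 in 14.97% of genes. Between the CSex4 libraries it had an SD of 0.12 and exceeded 1 in 0% of genes. The reads of the CSex4 libraries still differed by more than counting error (mean chi-square 2.34 at 1 degree of freedom, against 126 for WT). This does not tell whether they were separate cultures, since libraries of 1 culture can also differ by more than counting error. They were counted as 2 samples, as labelled. Values below are normalised reads, given in the order WT of pair A, WT of pair B, CSex4 of pair A and CSex4 of pair B.

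In CSex4 neural precursors 19 of 26 pluripotency, 13 of 23 germline, 9 of 18 trophoblast and 7 of 23 Nodal pathway genes rose, and 10 of 26 neural progenitor, 8 of 32 Hox and 7 of 35 axon guidance genes fell. The authors' deposited test called 863 of 15603 genes that had an adjusted p (5.53%, threshold 0.05), 636 of them higher (4.08%) and 227 lower (1.45%) in CSex4. The median log2 fold change was 2.10 among the genes called higher, with 350 over 2, and −1.28 among those called lower, with 14 beyond −2 (authors' deposited table). Genes called higher mostly lay below the median baseMean of all 16136 genes (648), with a median of 400 and 35.4% at or above it. Those called lower had a median of 1179 in the authors' deposited table. Each called gene with recovered reads (635 higher and 226 lower) had both CSex4 libraries outside both WT libraries, as did 29.2% of all genes on the higher and 31.1% on the lower side. The gap to the nearest WT library was larger than the difference between the WT libraries in 508 of the 635 and in 144 of the 226. The WT library of pair B was the higher WT library in 21.1% of the genes called higher, in 75.7% of those called lower and in 49.7% of all genes. The genes called higher had a median log2 difference of 1.67 from the WT library of pair A and of 2.42 from that of pair B, and those called lower had −1.006 and −1.54. The part of this difference between the WT libraries in the calls was not tested.

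The count of calls depended on the fit. The authors' deposited test called 863 genes, whereas limma on log2(normalised reads + 1) called 0 at an adjusted p of 0.05, with a smallest adjusted p of 0.0966 and 3620 genes at an unadjusted p under 0.05, against 2404 in the authors' deposited table. With the pairs as a replicate block limma also called 0 genes (smallest adjusted p 0.157). "Called", "rose" and "fell" below therefore refer to the authors' deposited test.

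**Figure D1:**
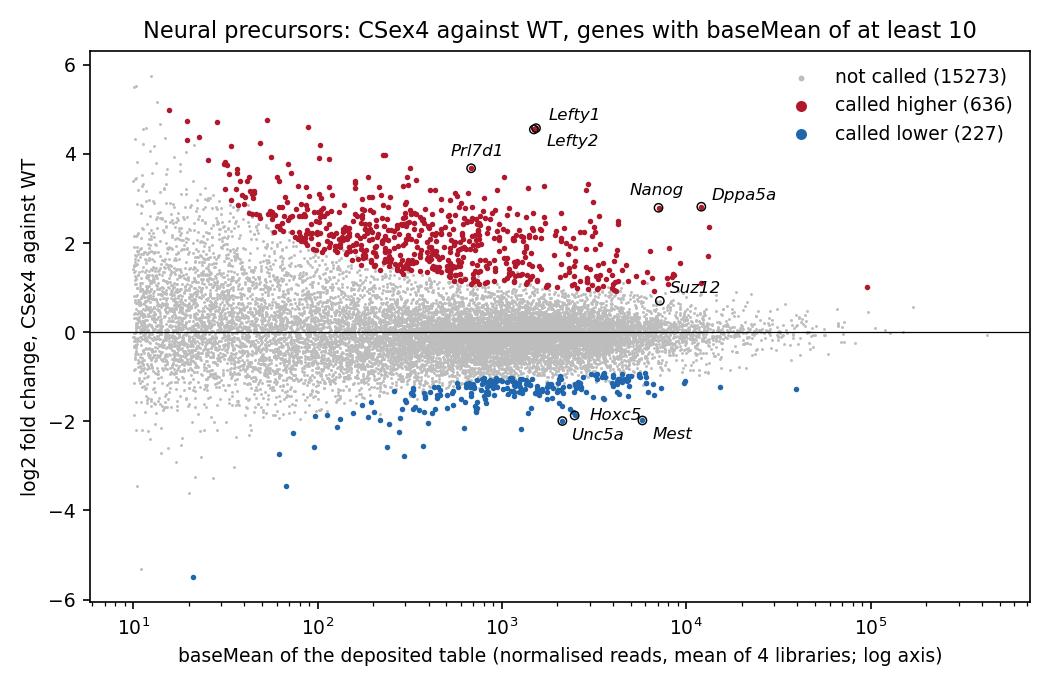
Log2 fold change (CSex4 against WT) of each gene plotted against its baseMean on a log axis, both from the authors' deposited table; red points are the 636 genes called higher, blue points the 227 called lower and grey points the genes not called. Lefty1 and Lefty2 (log2 fold changes of 4.58 and 4.55) stand above all other called genes with baseMean over 648, and Unc5a (−1.99), Mest (−1.98) and Hoxc5 (−1.87) lie among the lowest there.

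Promoters of the genes called higher held few CpG dinucleotides. In the 300 bases around the annotated start (250 before and 50 after; RefSeq, GRCm38.p6), the median was 8 CpG for 488 genes called higher, 18.5 for 163 called lower and 20 for 11984 not called. Fewer than 5 CpG were found in 31.2%, 8.59% and 7.65% of these promoters. Promoters of 2 placental genes that rose and of 2 genes that fell are printed here as examples from each side, 5′ to 3′ on the strand of the gene, with every CpG in capitals. Tpbpa, a marker of spongiotrophoblast, has 2 CpG at chr13:60941887-60942186 (minus strand), and Prl7d1, a placental prolactin family hormone, has 4 at chr13:27716688-27716987 (minus strand). Unc5a, a netrin receptor, has 37 at chr13:54949161-54949460 (plus strand), and Hoxb4 has 14 at chr11:96318017-96318316 (plus strand). Both placental promoters lie below the median of 8 for genes called higher. Other genes that rose hold more CpG than Hoxb4, such as Dazl (28) and Tex19.1 (16).
Tpbpa: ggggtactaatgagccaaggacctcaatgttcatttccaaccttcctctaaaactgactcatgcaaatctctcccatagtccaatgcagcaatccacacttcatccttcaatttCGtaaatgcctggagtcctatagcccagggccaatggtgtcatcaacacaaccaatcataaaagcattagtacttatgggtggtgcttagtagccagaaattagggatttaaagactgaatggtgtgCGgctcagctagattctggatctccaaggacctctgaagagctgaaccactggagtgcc
Prl7d1: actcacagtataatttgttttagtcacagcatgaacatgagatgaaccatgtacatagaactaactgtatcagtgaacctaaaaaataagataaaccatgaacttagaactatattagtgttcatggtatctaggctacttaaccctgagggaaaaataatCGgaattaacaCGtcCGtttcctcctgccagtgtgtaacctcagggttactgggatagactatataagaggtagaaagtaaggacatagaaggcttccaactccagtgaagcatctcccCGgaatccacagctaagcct
Unc5a: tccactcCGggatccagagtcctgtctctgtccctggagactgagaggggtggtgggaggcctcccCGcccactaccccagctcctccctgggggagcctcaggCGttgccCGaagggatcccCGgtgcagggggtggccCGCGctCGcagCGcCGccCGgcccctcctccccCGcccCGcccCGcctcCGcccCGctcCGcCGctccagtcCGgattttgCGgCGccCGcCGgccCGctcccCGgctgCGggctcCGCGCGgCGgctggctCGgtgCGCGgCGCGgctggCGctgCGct
Hoxb4: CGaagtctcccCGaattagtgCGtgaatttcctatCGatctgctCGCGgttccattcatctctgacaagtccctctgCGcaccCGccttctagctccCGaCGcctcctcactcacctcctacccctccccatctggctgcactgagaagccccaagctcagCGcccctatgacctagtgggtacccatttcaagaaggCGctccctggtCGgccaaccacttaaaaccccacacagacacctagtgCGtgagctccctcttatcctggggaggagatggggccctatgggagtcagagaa
The motif AATCCACA, bound by the Nodal pathway factor Foxh1, was searched on both strands and occurred in 8 of the 488 promoters of genes called higher (1.64%), in 1 of 163 of those called lower and in 0.697% of all 12635 promoters. The octamer ATGCAAAT, bound by Pou5f1 and related factors, occurred in 2.66%, 3.07% and 1.74%. The 2 motifs were searched separately, and matches of 1 may overlap the other. Of the promoters printed, Tpbpa holds both motifs and Prl7d1 holds AATCCACA. A match describes the letters only.

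At the level of the whole gene, Suz12 was not called. Its normalised reads were 5113 and 5840 in WT and 9210 and 8579 in CSex4, so both CSex4 libraries lay above both WT libraries. In the authors' deposited table its log2 fold change was 0.70 ± 0.30 (adjusted p = 0.193), and it was 0.02 ± 0.31 in ESC. Of 12 PRC2 subunits, 1 rose and 0 fell, with a median of 0.30 against −0.03 over all genes in the authors' deposited table. The subunit that rose was Phf19, a Polycomb-like protein that recruits PRC2 to chromatin. It had 689 and 331 reads in WT and 2432 and 2389 in CSex4, and a log2 fold change of 2.33 ± 0.36 (adjusted p = 3.74e-08) in the authors' deposited table. The catalytic subunit Ezh2 (−0.22 ± 0.30) and the scaffold Eed (0.32 ± 0.32) had adjusted p of 0.883 and 0.782 there. Of 19 subunits of Polycomb repressive complex 1, Phc1 (1.26 ± 0.30) and Rybp (1.12 ± 0.33) rose, 0 fell, and the median was −0.29 in the authors' deposited table.

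The pluripotency network was the list with the highest median. Of 26 genes, 19 rose and 0 fell, with a median log2 fold change of 2.39 in the authors' deposited table. Set against the mean of the ESC table, which was normalised separately, the median level of the 26 genes was 21.1% and 7.84% in the WT libraries and 46.7% and 46.0% in CSex4. Nanog, a homeobox factor of naive pluripotency, had 2701 and 1153 reads in WT and 12359 and 12064 in CSex4. Pou5f1, the central POU factor of the network, had 2047 and 776 in WT and 7226 and 7066 in CSex4. Both WT libraries were low for these genes, with pair B the lower, and the CSex4 libraries lay close together above them. The log2 fold changes in the authors' deposited table were 2.79 ± 0.36 for Nanog (adjusted p = 5.54e-12) and 2.50 ± 0.37 for Pou5f1 (5.75e-09). Dppa5a, an RNA-binding protein of embryonic stem cells, had the most reads of the list in CSex4 (21261 and 20746, against 3989 and 2234 in WT) and a log2 fold change of 2.81 ± 0.33 in the authors' deposited table. Nr0b1, a nuclear receptor that binds Pou5f1, had the largest change of the list, with 70.8 and 28.6 reads in WT, 579 and 594 in CSex4 and a log2 fold change of 3.67 ± 0.48 in the authors' deposited table. Dppa2 (3.32 ± 0.39), Tcl1 (3.29 ± 0.51), Klf2 (2.61 ± 0.41), Esrrb (2.44 ± 0.36) and Zfp42 (2.35 ± 0.40) also rose in that table. Sox2, which neural precursors share with pluripotent cells, had 3743 and 5563 reads in WT and 5875 and 5661 in CSex4 and was not called (0.34 ± 0.32 in the authors' deposited table). The other 6 genes without a call were Klf4 (−0.26 ± 0.41), Lin28a (0.05 ± 0.42), Tbx3 (0.25 ± 0.36), Tdh (0.72 ± 0.44), Klf5 (0.92 ± 0.44) and Sall4 (1.00 ± 0.36) in that table.

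**Figure D2:**
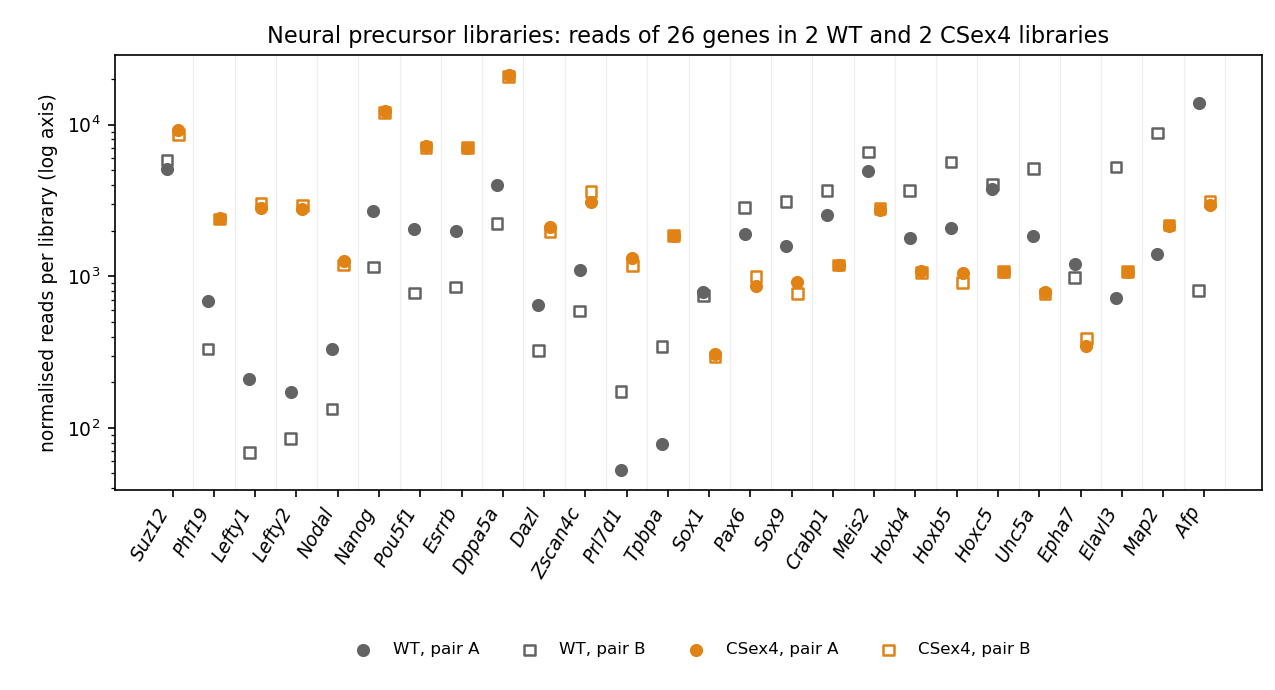
Normalised reads of 26 genes on a log axis in each of the 4 libraries; grey symbols are WT, orange symbols CSex4, filled circles pair A and open squares pair B. The 2 CSex4 symbols nearly coincide for most genes, while the WT symbols are far apart for genes such as Elavl3, Map2 and Afp.

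Among genes of the Nodal pathway, 2 ligands, the co-receptor, 2 feedback antagonists and 2 transcription factors rose. Nodal is a TGF-beta family ligand that maintains the epiblast, Tdgf1 is its co-receptor, and Lefty1 and Lefty2 are secreted antagonists that the pathway itself induces. Lefty1 had 211 and 68.9 reads in WT and 2836 and 3008 in CSex4. Lefty2 had 172 and 84.7 reads in WT and 2769 and 2932 in CSex4. These were the 2 largest rises among genes at or above the median baseMean (648), at log2 fold changes of 4.58 ± 0.42 (adjusted p = 3.15e-24) and 4.55 ± 0.37 (1.08e-29) in the authors' deposited table. Nodal itself had 329 and 133 reads in WT and 1263 and 1188 in CSex4 (2.54 ± 0.40 in the authors' deposited table). The related ligand Gdf3 (2.63 ± 0.43), the co-receptor Tdgf1 (2.50 ± 0.46), the DNA-binding partner of Smad proteins Foxh1 (2.18 ± 0.48) and the T-box target Eomes (2.05 ± 0.50) rose as well in the authors' deposited table. No receptor and no Smad of the list was called, with negative values for Acvr2b (−0.66 ± 0.31), Smad2 (−0.11 ± 0.31) and Smad4 (−0.61 ± 0.30) and a positive one for the inhibitory Smad7 (0.80 ± 0.35) in the same authors' deposited table. Smad7 had 722 and 546 reads in WT and 1120 and 1063 in CSex4. In all, 7 of 23 genes rose and 0 fell, with a median of 0.14, and Gdf1, Cer1, Cfc1, Acvr1c and Fgf8 were below baseMean 10. That median was −0.04 against the WT library of pair A alone and 0.30 against that of pair B. Of 15 formative and primed epiblast genes, Etv5 (2.16 ± 0.40) and Etv4 (1.85 ± 0.41), transcription factors downstream of FGF signalling, rose and 0 fell, with a median of −0.43 in the authors' deposited table. Fgf5 (−0.81 ± 0.76) and Otx2 (−1.69 ± 0.95), which mark the primed epiblast, were not called there.

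Of 23 germline genes 13 rose in CSex4 and 0 fell, and the list's median was 1.53 on the log2 scale (authors' deposited table). Dazl, an RNA-binding protein of germ cells, had 648 and 324 reads in WT and 2121 and 1972 in CSex4 (2.16 ± 0.36, adjusted p = 3.10e-07, in the authors' deposited table). Tex19.1, which restrains retrotransposons, had 830 and 470 reads in WT and 2011 and 2039 in CSex4 (1.70 ± 0.35 in the authors' deposited table). Rhox6 (2.12 ± 0.32) and Rhox9 (2.26 ± 0.32), homeobox genes of the X-linked reproductive cluster, and the meiotic gene Hormad1 (2.46 ± 0.54) rose in that table too. Stra8, the retinoic acid-induced meiotic gatekeeper, was abundant in every library (13950, 6541, 11168 and 11227 reads) and was not called (0.23 ± 0.35 in the authors' deposited table). Of 10 genes of the DNA methylation machinery, 1 rose and 0 fell, with a median of 0.06. It was Dnmt3l, the catalytically inactive partner of the de novo methyltransferases, with 1226 and 215 reads in WT and 2057 and 1918 in CSex4 (1.94 ± 0.47 in the authors' deposited table).

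Placental genes formed another group. Of 18 trophoblast genes, 9 rose and 0 fell, with a median of 1.30 in the authors' deposited table. Tpbpa, whose promoter is printed above, had 78.0 and 345 reads in WT and 1851 and 1852 in CSex4 (3.48 ± 0.46, adjusted p = 3.06e-11, in the authors' deposited table). Prl7d1 had 52.6 and 174 reads in WT and 1318 and 1178 in CSex4 (3.68 ± 0.46 in the authors' deposited table). Here the WT library of pair B was the higher one, unlike for Nanog and Pou5f1. Gata2, a regulator of trophoblast giant cells, had 484 and 485 reads in WT and 2185 and 2071 in CSex4, and a log2 fold change of 2.13 ± 0.33 in the authors' deposited table. Hand1 (2.50 ± 0.38), Ascl2 (2.62 ± 0.51), Tfap2c (2.25 ± 0.34), Plac1 (2.32 ± 0.38) and Krt7 (1.74 ± 0.32) rose in that table. Cdx2 (0.68 ± 0.55), Elf5 (0.22 ± 0.69) and Gata3 (1.03 ± 0.46), which mark the trophoblast stem cell state, were not called there. Cdh5, the cadherin of endothelial junctions, was also among the 12 largest rises, with 412 and 774 reads in WT and 5238 and 5008 in CSex4 (3.18 ± 0.35 in the authors' deposited table).

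Many of the called genes were neighbours in clusters, a grouping made after their values were seen. On chromosome 13, 11 of 14 genes of a 1 Mb window at the prolactin family rose, all 11 of them prolactin family members, as did 8 of 9 genes around Serpinb9b and 5 of 8 around Tpbpa and the placental cathepsin Ctsj. Further such windows held 5 of 5 Zscan4 genes on chromosome 7, 8 of 8 genes from Tcstv1 to Tcstv3 on chromosome 13 and 10 of 10 from Gm8300 to Gm5039 on chromosome 12. The windows were picked because their genes were called, so these counts restate that choice. Zscan4c, a zinc finger gene, had 1100 and 590 reads in WT and 3065 and 3610 in CSex4 (2.04 ± 0.36, adjusted p = 2.16e-06, in the authors' deposited table). Dux, a homeobox gene, had 60.8 and 28.6 reads in WT and 324 and 374 in CSex4 (3.04 ± 0.53 in the authors' deposited table). Where copies within a cluster are nearly identical, reads could be split between them and the values of single copies are uncertain. Which of these clusters that covers was not examined.

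Of 26 neural progenitor genes, 10 fell and 0 rose, with a median log2 fold change of −1.10 in the authors' deposited table. Sox1, the earliest neuroectoderm factor, had 792 and 743 reads in WT and 305 and 294 in CSex4, a case in which the WT libraries were close together (−1.36 ± 0.37, adjusted p = 0.00753, in the authors' deposited table). Pax6, a regulator of radial glia, had 1894 and 2851 reads in WT and 863 and 995 in CSex4 (−1.33 ± 0.33, adjusted p = 0.00192, in the authors' deposited table). Fgfbp3 (−1.77 ± 0.37), Sox9 (−1.41 ± 0.38), Zbtb16 (−1.39 ± 0.35), Pou3f2 (−1.24 ± 0.40), Vim (−1.23 ± 0.40), Slc1a3 (−1.20 ± 0.33) and Nes (−1.10 ± 0.35) fell too in the authors' deposited table. Hes5, the Notch effector, had 576 and 1135 reads in WT and 372 and 359 in CSex4 and was not called (−1.15 ± 0.40 there). The list's median was −0.39 against the WT library of pair A and −1.71 against that of pair B. Vim (−0.34 and −2.11) and Nes (−0.51 and −1.69) likewise fell mostly against pair B.

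Neuronal genes depended on which WT library was used. Of 31 proneural and neuronal genes, 1 fell and 0 rose. Both CSex4 libraries lay below both WT libraries in 10 of the 31, which is near the share over all genes (31.1%). The list's median was −0.75 in the authors' deposited table, 0.31 against the WT library of pair A and −1.85 against that of pair B. Elavl3, a neuronal RNA-binding protein, had 717 and 5240 reads in WT and 1060 and 1079 in CSex4. Map2, a dendritic microtubule protein, had 1398 and 8818 reads in WT and 2159 and 2179 in CSex4. In both genes the CSex4 libraries lay between the WT libraries, and neither was called (−0.86 ± 0.50 and −0.70 ± 0.48 in the authors' deposited table). Of 25 dorsoventral genes of the neural tube, 1 fell and 0 rose, with a median of −0.55. It was Dbx1, which marks progenitors at the middle of the dorsoventral axis, with 1443 and 973 reads in WT and 471 and 470 in CSex4 (−1.33 ± 0.36, adjusted p = 0.006, in the authors' deposited table). Endoderm genes showed the opposite order of WT libraries: 0 of 23 were called, with medians of −1.37 against pair A and 0.61 against pair B. Afp, the fetal plasma protein of visceral endoderm, had 13798 and 805 reads in WT and 2947 and 3115 in CSex4.

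**Figure D3:**
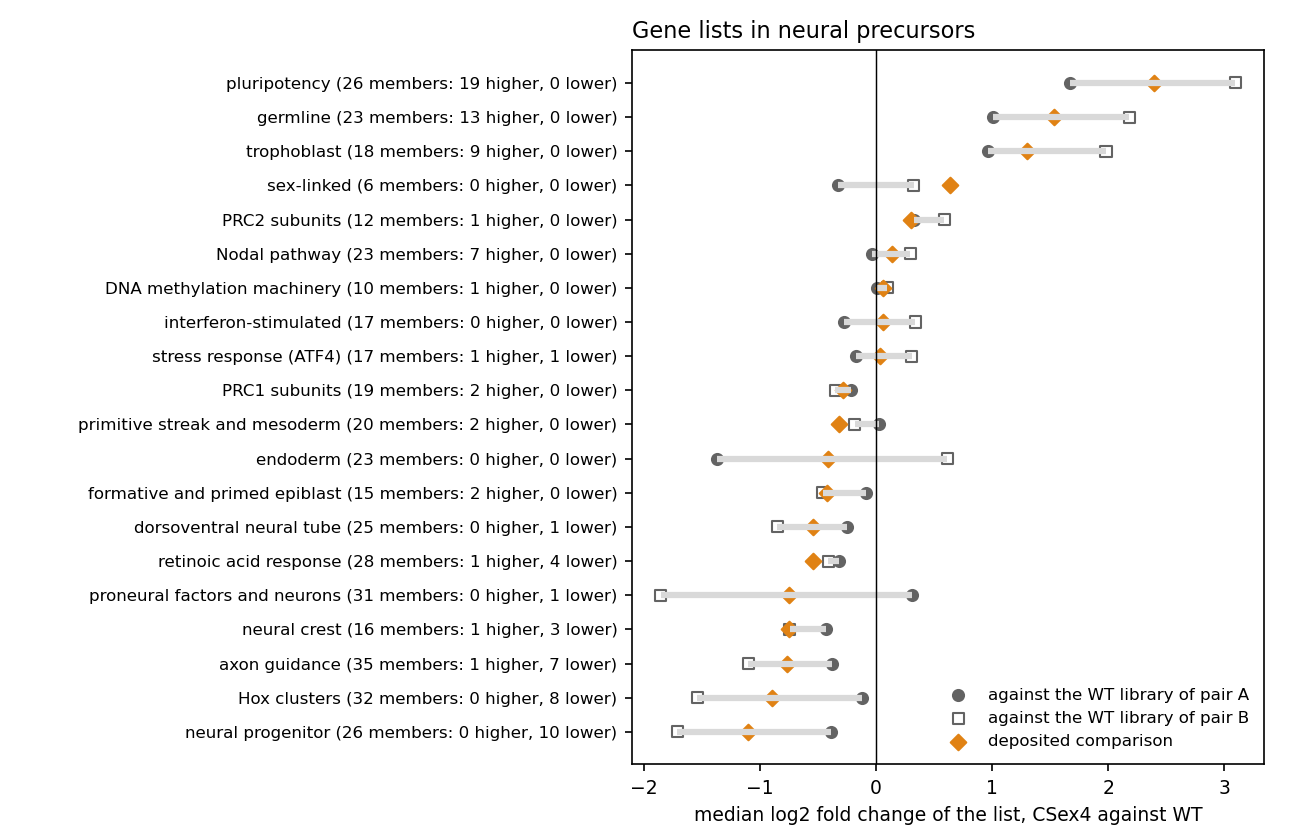
Median log2 fold change of each gene list, from the authors' deposited table (orange diamonds) and against the WT library of pair A (filled circles) or of pair B (open squares) alone; numbers of members called are given beside each list. Pluripotency, germline and trophoblast medians are above 0 against both WT libraries, whereas the circle and the square lie on opposite sides of 0 for lists such as the proneural, endoderm, Nodal pathway and sex-linked genes.

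Of 32 Hox genes, 8 fell and 0 rose, with a median of −0.89 in the authors' deposited table (−0.12 against the WT library of pair A and −1.54 against pair B). Those that fell were Hoxa4, Hoxa5, Hoxb2, Hoxb4, Hoxb5, Hoxb6, Hoxc5 and Hoxd4, none with a higher number in its name than Hoxb6. Hoxc5 had 3781 and 4011 reads in WT and 1061 and 1071 in CSex4 (−1.87 ± 0.31, adjusted p = 2.93e-07, in the authors' deposited table). Hoxb4, whose promoter is printed above, had 1791 and 3670 reads in WT and 1086 and 1055 in CSex4 (−1.26 ± 0.36, adjusted p = 0.013, in the authors' deposited table). Hoxb5 (−1.80 ± 0.40) and Hoxb6 (−1.73 ± 0.42) fell in that table. Hoxb1 (0.17 ± 0.39), which answers retinoic acid early, was not called there. The 9 measured genes of the A, C and D clusters numbered from 8 upward had positive values without a call. They ranged from 0.43 for Hoxd8 to 1.92 for Hoxd9 in the authors' deposited table, whereas Hoxb9 (−0.33 ± 0.42) and Hoxb13 (−0.38 ± 0.62) had negative values. Of 28 genes of the retinoic acid response, 4 fell and 1 rose, with a median of −0.55 in that table. Crabp1, a cytoplasmic retinoic acid-binding protein, had 2540 and 3683 reads in WT and 1191 and 1184 in CSex4 (−1.36 ± 0.33, adjusted p = 0.00127, in the authors' deposited table). Crabp2 (−1.11 ± 0.31) and the Hox cofactors Meis1 (−0.95 ± 0.31) and Meis2 (−1.05 ± 0.31) fell, and Aldh1a3, a retinoic acid-synthesising enzyme, rose (2.11 ± 0.65) in the authors' deposited table. Cyp26a1, the enzyme that degrades retinoic acid and a direct target of its receptors, had 13767 and 9570 reads in WT and 9575 and 9863 in CSex4 and was not called.

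Of 35 axon guidance genes, 7 fell and 1 rose, with a median of −0.77 in the authors' deposited table (−0.38 against the WT library of pair A and −1.10 against pair B). Both CSex4 libraries lay below both WT libraries in 22 of the 35, against 31.1% of all genes. Unc5a, whose CpG-rich promoter is printed above, had 1853 and 5113 reads in WT and 785.1 and 762.3 in CSex4 (−1.99 ± 0.39, adjusted p = 2.85e-05, in the authors' deposited table). Epha7, an ephrin receptor, had 1202 and 977 reads in WT and 347 and 387 in CSex4 (−1.56 ± 0.36, adjusted p = 0.000678, in the authors' deposited table). Robo2 (−1.51 ± 0.42), Unc5c (−1.33 ± 0.35), Nrp2 (−1.27 ± 0.39), Sema3c (−1.24 ± 0.35) and Epha4 (−1.24 ± 0.34) fell, and Sema3e, a secreted semaphorin, rose (1.67 ± 0.33) in the authors' deposited table. Mest, an imprinted gene of embryonic mesoderm and neural tissue, had the lowest fold change after Gm39529 and Unc5a among genes at or above the median baseMean, with 9137 and 9315 reads in WT and 2387 and 2286 in CSex4 (−1.98 ± 0.30, adjusted p = 1.15e-08, in the authors' deposited table).

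The remaining lists held few calls. Of 16 neural crest genes, Tfap2b (−1.63 ± 0.46), Sox9 (−1.41 ± 0.38) and Zeb2 (−1.22 ± 0.36) fell and Erbb3 (1.996 ± 0.385) rose in the authors' deposited table. Of 20 genes of primitive streak and mesoderm, Eomes and Hand1, given above, rose and 0 fell. Of 17 ATF4 stress genes, Asns rose (1.54 ± 0.34) and Ddit4 fell (−1.43 ± 0.34) in the authors' deposited table. Of 17 interferon-stimulated genes 0 were called, and of 6 sex-linked genes 0 were called. The medians were −0.75 for neural crest, −0.32 for mesoderm, 0.04 for ATF4 stress, 0.06 for interferon-stimulated and 0.63 for sex-linked genes in the authors' deposited table. Against the WT libraries of pairs A and B in turn they were −0.43 and −0.74 for neural crest, 0.02 and −0.18 for mesoderm, −0.18 and 0.31 for ATF4 stress, −0.28 and 0.34 for interferon-stimulated and −0.33 and 0.33 for sex-linked genes. The sign of the last 4 medians therefore depended on which WT library was used.

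Genes that fell lay near Polycomb regions of ESC far more often than genes that rose. Regions came from 2 deposited lists, of 2865 regions for Suz12 and 6882 for H3K27me3, whose file headers name DiffBind, WT and a false discovery rate limit but neither the contrast nor its direction. An annotated gene start or end (GRCm38.p6) within 2500 bp of an H3K27me3 region was found for 69.6% of the 227 genes called lower (95% Wilson interval 63.3 to 75.2%), 23.2% of 635 called higher (20.0 to 26.6%) and 24.6% of 15271 not called. For Suz12 regions the shares were 54.6% (48.1 to 61.0%), 11.0% (8.82 to 13.7%) and 12.9%. The intervals cover counting error only. Among lists, 31 of 35 axon guidance genes, 27 of 32 Hox genes and 21 of 26 neural progenitor genes lay near an H3K27me3 region, against 4 of 26 pluripotency genes (Klf4, Tbx3, Prdm14 and Dppa3). The other lists with many rises were not as low, with 14 of 23 germline, 11 of 18 trophoblast and 10 of 23 Nodal pathway genes. Of genes named above, Sox1, Pax6 and Hoxb4 lay near regions of both kinds. Unc5a, Lefty1 and Lefty2 lay near H3K27me3 alone, and Nanog, Pou5f1 and Nodal near neither.

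For the same genotype in ESC, the table called 1.72% of 13811 genes higher and 0.695% lower (authors' deposited table). The difference between the NP and the ESC log2 fold change was tested for the 14304 genes that reached baseMean 10 in each of these tables, which share no library. It passed an adjusted p of 0.05 (Benjamini-Hochberg, two-sided normal test on the deposited SEs) for 379 genes in the positive (2.65%) and 332 in the negative direction (2.32%). Genes called higher in NP included 31 called lower in ESC (4.87% of the NP calls and 32.3% of the ESC calls) and 11 called higher there (1.73% and 4.64%). Genes called lower in NP included 21 called higher in ESC (9.25% and 8.86%) and 2 called lower (0.881% and 2.08%).

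Of the pluripotency genes, 8 of 26 were called lower in ESC, with a median of −0.78 there in the authors' deposited table, and a called positive difference for 20. Esrrb fell in ESC CSex4 by the authors' deposited test (−1.71 ± 0.38, adjusted p = 0.00152), whereas it rose in NP, a difference of 4.14 ± 0.53. Tcl1 was lower in ESC (−2.38 ± 0.48) and higher in NP (3.29 ± 0.51) in the authors' deposited tables. Lefty1 and Lefty2 were not called in ESC (−1.29 ± 0.46 and −0.71 ± 0.38 in the authors' deposited table), and their differences of 5.87 ± 0.62 and 5.26 ± 0.54 were the 2 largest positive ones among genes above the median baseMean in both tables. The difference was called for 6 of 22 tested Nodal pathway genes and 9 of 22 tested germline genes in the positive direction, and in the negative direction for 10 of 31 tested axon guidance genes and 5 of 22 of the retinoic acid response. In the Nodal pathway list, 1 gene, Smad3, had a called negative difference (−1.53 ± 0.50). Trophoblast genes had a median of 1.40 in ESC, with 5 of 14 tested genes called higher and 0 lower, against 1.30 in NP (authors' deposited tables). Their difference had a median of −0.42 and was called positive for 1 and negative for 2 of the 14. Axon guidance genes had a median of 1.14 in ESC, with 5 called higher, Sema3c (2.88 in ESC and −1.24 in NP) among them (authors' deposited tables). Thbs1, an inhibitor of vessel growth, had the largest negative difference of that kind (−5.02 ± 1.40), although it was not called in ESC (3.29 ± 1.35). It had 1146 and 1089 reads in WT and 344 and 330 in CSex4 neural precursors.

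**Figure D4:**
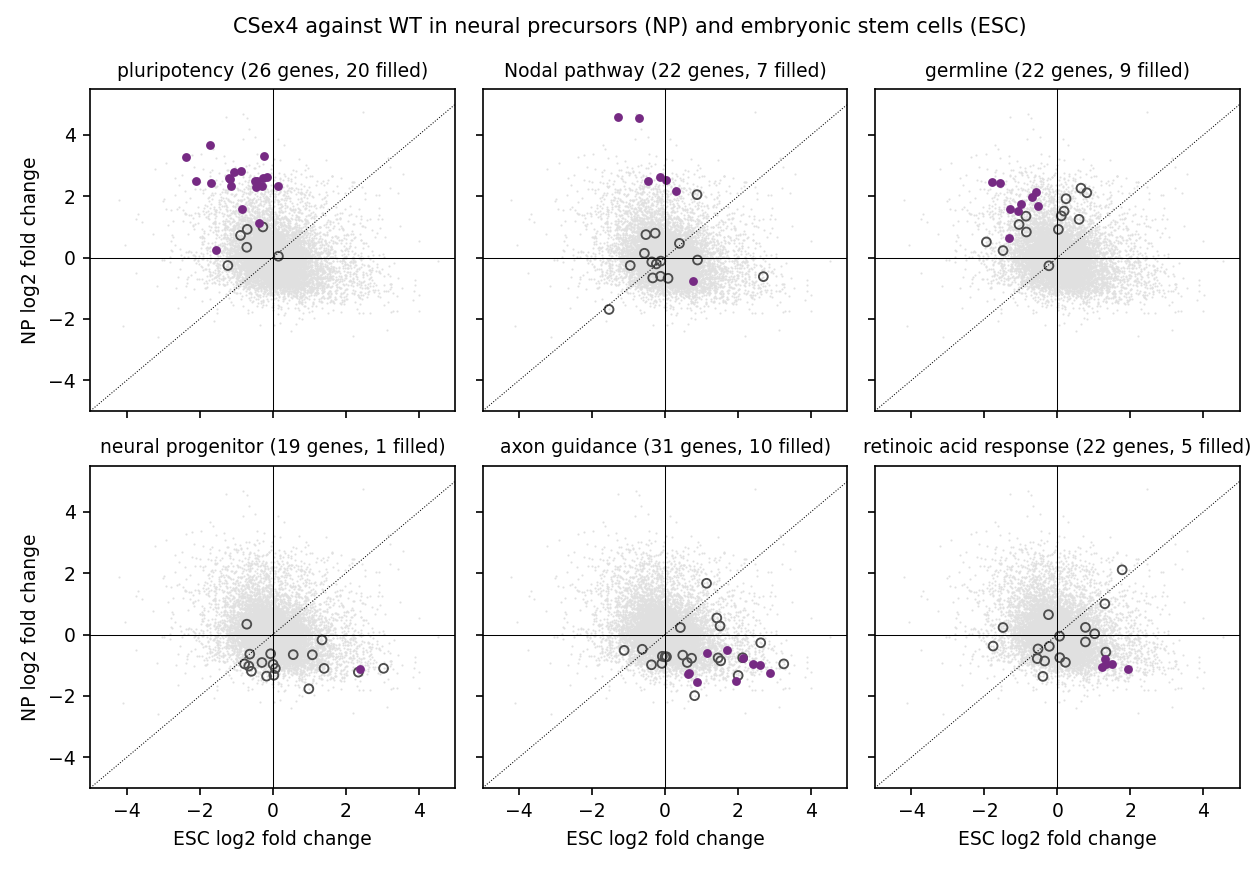
Log2 fold change of CSex4 against WT in neural precursors (vertical) and in ESC (horizontal), from the authors' deposited tables, for the genes of 6 lists tested in both; filled points have a called difference, light grey points are all tested genes and the dotted line marks equal effects. All 20 filled pluripotency genes lie above the line and all 10 filled axon guidance genes below it.

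Other genotypes of neural precursors were set beside CSex4. The Deltaex4 and KO comparisons use the same WT libraries as the CSex4 comparison, so their values are given side by side only. Deltaex4 had 5 genes called higher (0.0315%) and 9 lower (0.0568%), and KO had 11.7% called higher and 9.98% lower in the authors' deposited tables. The pluripotency median was 2.39 in CSex4, −0.32 in Deltaex4 and −0.24 in KO, and the Hox median −0.89, 0.24 and −2.07, in the authors' deposited tables. The neural progenitor median was −1.10 in CSex4, 0.68 in Deltaex4 and −2.46 in KO there. The trophoblast median was 1.30 in CSex4, 0.08 in Deltaex4 and 1.64 in KO, where 9 of the list's genes were called higher and 1 lower (authors' deposited tables). Phf19 had log2 fold changes of 2.33, −1.12 and −1.79, and Zscan4c 2.04, −1.48 and −1.52, in the authors' deposited tables.

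Rescued knockouts share no library with the CSex4 comparison. KO-L against KO had 11.4% of genes called higher and 14.4% lower, and KO-S against KO 16.7% higher and 18.3% lower, in the authors' deposited tables; these 2 comparisons share their KO libraries. Of the 636 genes called higher in CSex4, 283 (44.5%, and 9.68% of the KO-S calls) were called lower in KO-S and 12 (1.89%) higher. Of the 227 called lower, 149 (65.6%, and 5.59% of the KO-S calls) were called higher in KO-S and 12 (5.29%) lower. For KO-L the genes called higher in CSex4 split into 158 higher (24.8%, and 8.75% of the KO-L calls) and 94 lower (14.8%), and those called lower into 69 higher (30.4%) and 48 lower (21.1%). Lefty1 (4.53 ± 0.24), Lefty2 (4.76 ± 0.24) and Nodal (3.35 ± 0.28) were called higher in KO-L, and none of the 3 was called in KO-S, with 1.011 ± 0.448, 0.34 ± 0.49 and 0.59 ± 0.41, in the authors' deposited tables; the difference between the rescues was not tested. The pluripotency list had 18 of 26 genes higher and 2 lower in KO-L, and 3 higher and 11 lower in KO-S. The germline list had 4 of 23 higher and 3 lower in KO-L, and 0 higher and 15 lower in KO-S. Of the Hox list, 17 of 32 genes were higher and 11 lower in KO-L, and 18 higher and 11 lower in KO-S. Hoxc5, lower in CSex4, was higher in both rescues (3.55 ± 0.24 and 5.21 ± 0.19), and Unc5a likewise (0.84 ± 0.29 and 3.88 ± 0.18), in the authors' deposited tables.

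A long stretch of chromosome 6 stood apart from the rest of the genome. Of 460 genes from 80 Mb to the end of chromosome 6, a limit chosen after the values were seen, 82.6% had a positive log2 fold change, and the authors' deposited test called 56 higher and 0 lower. Their median was 0.52, with quartiles of 0.17 and 0.88, against −0.08 for 333 genes nearer the start of the chromosome and −0.04 on all other chromosomes. It was 0.55 against the WT library of pair A and 0.52 against that of pair B. The 29 genes of the first 10 Mb of the chromosome also had a positive median (0.39, with 75.9% positive; 0.35 and 0.40 against the WT libraries of pairs A and B). For the 460 genes from 80 Mb the median was −0.02 for CSex4 in ESC, 0.07 for Deltaex4 and 0.16 for KO in the authors' deposited tables. For the 29 genes of the first 10 Mb it was 0.22, −0.05 and 0.30 in the same order. DNA copy number was not measured here, and its part in these values was not tested. Nanog, Dppa3, Gdf3 and Phc1 lie in the stretch, and without the first 3 16 of 23 pluripotency genes rose. Over all genes outside it, 807 were called, 580 higher and 227 lower. Chromosome 8 had a median of 0.17, which was −0.02 against the WT library of pair A and 0.42 against that of pair B.

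**Figure D5:**
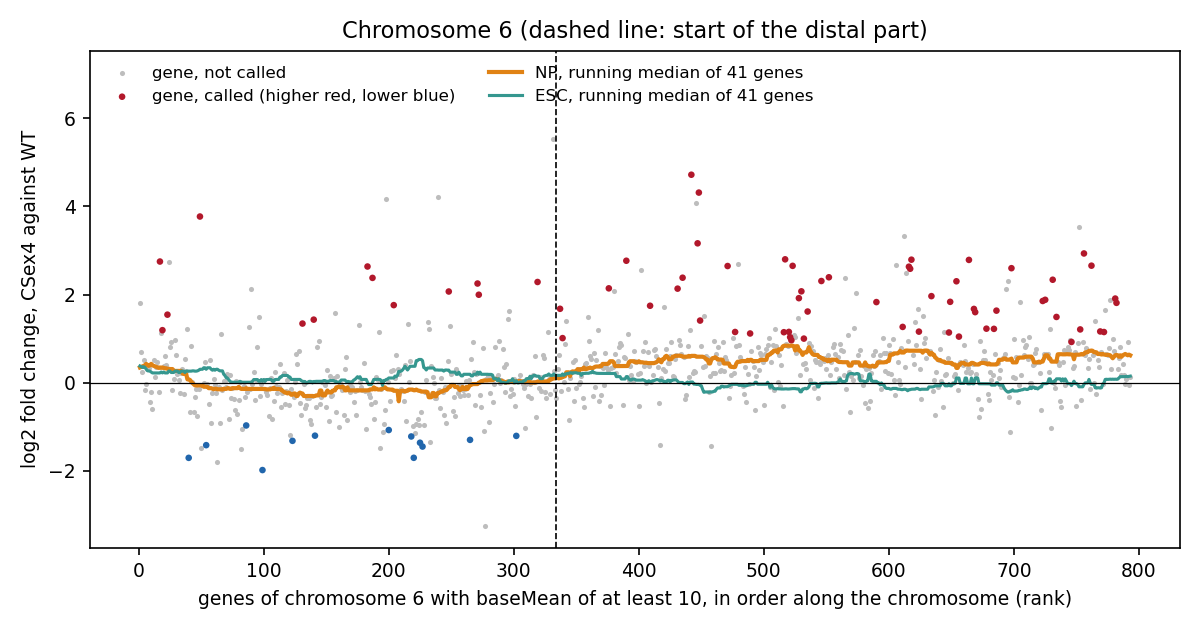
Log2 fold change (CSex4 against WT, authors' deposited table) of the genes of chromosome 6 in their order along the chromosome; red and blue points are genes called higher and lower, lines are running medians of 41 genes for neural precursors (orange) and ESC (green), and the dashed line marks the start of the distal stretch of 460 genes. In that stretch the orange line runs around the median of 0.52, and the green line around −0.02.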

How the data were processed

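PolyA RNA-seq tables of NP and ESC comparisons were used as the authors deposited them. Per the file headers each holds a baseMean (the deposited signal, in normalised reads), a deposited log2 fold change with its SE, a deposited test score (the statistic) and deposited p-values, raw and adjusted; the submitters' processing notes name TopHat, Bowtie, DESeq2, DiffBind and the builds mm10 and dm3, with no versions. Genes with baseMean of at least 10 were kept and an adjusted p of 0.05 was the threshold. The deposited statistics gave the main result.

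Whole reads of each library were recovered as the integers that fit the deposited baseMean, fold change and, for WT, the tables that share those libraries; WT reads were identical in 13872 of 13872 genes of the Deltaex4 table and 14624 of 14624 of the KO table. With pairs A and B the recovered reads gave the deposited log2 fold change within 0.001 in 99.97% of 16088 genes, against 74.1% with the other pairing and 15.7% without pairing, so the deposited fit was paired; which labelled replicate numbers form a pair, and what they share, is not given in the sources used here. The alternatives used limma 3.58.1 (R 4.3.3) on log2(normalised reads + 1), with and without that pairing as a replicate block. Scripts used Python 3.11.15, numpy 2.4.6, pandas 2.3.3, scipy 1.17.1 and matplotlib 3.10.9, and were tested on simulated data. Columns of samples left out numbered 0.

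Members and gene lists were chosen with earlier results of these data known, so lists are described by counts and medians with no test. Named genes were Suz12, list members, the 12 largest rises and falls among called genes at or above the median baseMean, the 6 largest differences from ESC in each direction, and the genes beside the limit of 10; other genes, such as those of clusters, were named after their values were seen. Some called genes are not reported by name here.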

Additional observations from a re-analysis of the deposited data

Results flagged for a closer look

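Results are listed here because the effect of CSex4 differed between neural precursors and ESC by a test of the difference itself. Of 14304 genes, 379 had a called positive and 332 a called negative difference (NP minus ESC, log2 scale). The largest positive ones among genes above the median baseMean in both tables were Lefty1 (5.87), Lefty2 (5.26), the germ cell bridge protein Tex14 (4.22), the pluripotency factor Esrrb (4.14), Phf11d (3.89) and the phosphatase Inpp5d (3.86). Tex14 had 351 and 229 reads in WT and 1061 and 1148 in CSex4 neural precursors.

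The largest negative ones were Thbs1 (−5.02), the receptor kinase Axl (−3.67), Fndc3c1 (−3.32), the matrix proteoglycan Vcan (−3.30), the matricellular protein Ccn1 (−3.22) and the Wnt secretion factor Wls (−3.14). Axl was not called in neural precursors (−0.93 ± 0.36 in the authors' deposited table), and was called higher in ESC (2.74). Thbs1 was called lower in neural precursors and was not called in ESC (3.29 ± 1.35). Among the lists, the difference was positive and called for 20 pluripotency, 9 germline and 6 Nodal pathway genes, and negative and called for 10 axon guidance and 5 retinoic acid response genes. It was also negative and called for 1 Nodal pathway gene, Smad3.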

How the results depend on the processing

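The calls rested on the deposited fit and on the WT libraries. At an adjusted p of 0.01 the authors' deposited table called 523 genes in place of 863, and the NP minus ESC difference 377 in place of 711. Limma called 0 genes without a replicate block (3620 at an unadjusted p under 0.05, 480 at an adjusted p under 0.10), 0 with the replicate block (2913 at an unadjusted p under 0.05), 0 with a pseudocount of 5 (3656) and 0 with the CSex4 libraries averaged and counted as 1 sample (808). Leaving out 1 library gave 0 to 11528 calls: 0 without either CSex4 library (831 and 807 at an unadjusted p under 0.05), 11528 without the WT library of pair A and 8590 without that of pair B, where the lone sample was assumed to vary like the other group. All 112 called named genes lost the call under limma with all libraries and without a CSex4 library, and 0 changed direction; adjusting over the members lost 1 and centring the fold changes lost 4. The median of the Nodal pathway list reversed to −0.037 without the WT library of pair B and was 0.30 without that of pair A. Without the WT library of pair B the median was 0.31 for proneural, −1.37 for endoderm, 0.024 for mesoderm, −0.18 for ATF4 stress, −0.28 for interferon-stimulated and −0.33 for sex-linked genes, and without that of pair A it was −1.85, 0.61, −0.18, 0.31, 0.34 and 0.33; each of these lists changed sign between the 2. At 0 bp from a region, the shares were 44.9% (Suz12) and 53.7% (H3K27me3) of genes called lower, 17.9% (H3K27me3) of those called higher, and 10.3% and 17.6% of those not called; at 10000 bp the last 2 were 15.9% and 30.6%. Leaving out the distal stretch of chromosome 6, an alternative chosen after seeing the data as were those without 1 library for the lists, gave 807 calls. The cause of these changes was not tested. With 2 samples a group and WT libraries far apart, changes were not detectable unless large, in weakly expressed genes and in others. Over all called genes the smallest log2 fold changes were 0.92 upward and 0.91 downward in size.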
